A study of Mus musculus with 14 samples.

Results

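The immediate early genes described here are Fos, Fosb, Jun, Junb, Egr1, Ier2, Ier5, Btg2, Klf6 and Dusp1, 10 of the 52636 genes in the deposited count table. They were taken as a named list, matched by Ensembl identifier to mouse symbols, and all 10 passed the filter on low counts together with 11994 genes in all. Expression was measured in leukemic progenitors recovered from transplant recipients of I1DN, an acute myeloid leukemia of the mouse with mutant IDH1; what else the name I1DN stands for is not given in the sources used here. AG120 (AG-120, ivosidenib) inhibits the mutant enzyme. From each mouse, cKit+ CD11b- cells were isolated by flow cytometry and their RNA was read from the 3′ end of transcripts (QuantSeq), where long and short transcripts give similar numbers of reads. The 14 libraries comprised disease that relapsed after 28 days of AG120 (relapse, n = 4), mice given AG120 until day 14 (n = 2) or until day 5 (n = 3), and mice given vehicle until day 14 (n = 2) or until day 5 (n = 3). All 5 groups carried the same transplanted leukemia, each library came from the sorted cells of 1 mouse per the labels, and the age of the mice is not given in the sources used here.

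Immediate early genes are transcribed within minutes of a stimulus, without new protein synthesis, when MAP kinases and other signals act on transcription factors that already sit at their promoters. Their transcripts are short-lived, and their products include the AP-1 transcription factors, zinc finger factors and feedback inhibitors that turn the signal off again. In blood progenitors they respond to cytokines such as the ligand of Kit, and in sorted cells they are also known to respond to the handling of the tissue before the cells are lysed. No sort day, sort order or time from tissue to lysis is given in the sources used here.

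Total counts per library ran from 4995738 to 8691708, and ribosomal RNA gene models took 50.9% to 74.8% of them; the remaining genes shared 1259982 to 3358874. Levels are given as CPM, counts brought to a common library size with the TMM method (trimmed mean of M values). Kit, used in the sort, had 11.6 and 11.6 CPM in AG120 day 14, 23.6 to 33.1 CPM in AG120 day 5, 18.9 to 52.0 CPM in relapse and 33.5 to 37.8 CPM in the vehicle libraries, while Itgam, which encodes CD11b, had 2.56 to 53.5 CPM and was highest in relapse replicate 1. Idh1, the gene of the enzyme whose mutant form AG120 inhibits, had 9.55 to 57.8 CPM. This count per gene does not tell mutant from normal transcripts and does not measure inhibition of the enzyme. In bulk samples, fewer cells of a type and less RNA per cell cannot be told apart. P-values set a difference between groups against the spread between libraries within groups, which is estimated per gene over all groups in the fit.

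Vehicle day 5 replicate 1 and relapse replicate 3 stood apart from the other libraries of their groups in these genes. Each was above its group mean for 10 of 10 immediate early genes. The average was 1.28 on the log2 scale in vehicle day 5 replicate 1 and 1.67 in relapse replicate 3. Of all genes tested, 48.7% and 51.9% were above the group mean in these libraries. Results that rest on either library are therefore given with and without it. Relapse replicate 2 lay about as far on the other side, with a mean deviation of -1.29 and 1 of 10 genes above the group mean. It was kept where both high libraries were left out together, so that choice trimmed the high side only.

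Compact gene structure was shared by the set. In the annotation of GRCm38, the assembly that matches the deposited data's build mm10, the main transcripts had a median of 2 exons, against 9 over the protein-coding genes tested. Their genomic span had a median of 3330 bases, against 21524. Jun, Junb, Ier2 and Ier5 have 1 exon, which is 40% of the set, against 2.44% of protein-coding genes tested. The pentamer ATTTA, the core of AU-rich elements that shorten the life of a transcript, occurred in the 3′ untranslated region of 9 of 10 members (90%), against 67.4% of the genes tested, and Ier2 was the member without it. The longer AU-rich motif TTATTTATT occurred in Fos and Dusp1, 20% of the set, against 7.35% of the genes tested. These sites are shown because Fos, an AP-1 subunit, and Dusp1, a phosphatase that switches MAP kinases off, stand at the opposite ends of the pathway; capitals mark the motif, on GRCm38 at chr12:85477103-85477131 (plus strand) for Fos and chr17:26506159-26506187 (minus strand) for Dusp1, whose untranslated region holds 2 such motifs, of which the first is shown.
Fos: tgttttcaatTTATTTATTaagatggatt
Dusp1: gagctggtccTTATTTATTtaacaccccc
A motif match is a description of the sequence, and transcript decay was not measured.

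Promoter windows from 250 bases before to 50 bases after the annotated start were found in RefSeq (GRCm38.p6) for 8 of the 10 genes; Egr1 and Ier2 were not matched. The cyclic AMP response element TGACGTCA, the site bound by CREB-family factors, was present on either strand in Btg2 and Dusp1, 2 of 8, against 1.79% of 32851 windows. The EGR site GCGNGGGCG was present in Btg2 and Fosb, against 5.55% of windows. TATAAA was present in Fos and Junb, against 13.6%, at position -33 in Fos and at position 0, the annotated start itself, in Junb. The AP-1 site TGANTCA was in 0 of 8 windows, against 7.81%, and the CArG box of serum response factor in 0 of 8, against 1.63%; for these letters only this window was searched, and the motifs searched did not overlap each other in a member. The windows of Btg2, Dusp1 and Fos are shown because the first carries 2 of the motifs and was among the genes that passed the tests below, the second carries the CREB-family site, and Fos carries the TATA element. Capitals mark TGACGTCA and GCGCGGGCG in Btg2 (positions -166 and -131 from the start), TGACGTCA in Dusp1 (position -143) and TATAAA in Fos (position -33).
Btg2 (chr1:134079106-134079405, minus strand): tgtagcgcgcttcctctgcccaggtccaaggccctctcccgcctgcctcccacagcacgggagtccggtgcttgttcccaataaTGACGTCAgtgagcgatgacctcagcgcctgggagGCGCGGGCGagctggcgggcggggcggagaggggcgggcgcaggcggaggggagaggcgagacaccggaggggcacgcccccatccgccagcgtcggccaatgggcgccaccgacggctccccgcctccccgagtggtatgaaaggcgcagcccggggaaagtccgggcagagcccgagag
Dusp1 (chr17:26508423-26508722, minus strand): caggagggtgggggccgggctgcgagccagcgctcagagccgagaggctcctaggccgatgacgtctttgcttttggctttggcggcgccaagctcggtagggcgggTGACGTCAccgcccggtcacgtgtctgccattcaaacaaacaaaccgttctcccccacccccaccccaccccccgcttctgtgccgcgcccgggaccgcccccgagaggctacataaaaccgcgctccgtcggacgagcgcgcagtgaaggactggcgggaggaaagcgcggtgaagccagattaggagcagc
Fos (chr12:85473640-85473939, plus strand): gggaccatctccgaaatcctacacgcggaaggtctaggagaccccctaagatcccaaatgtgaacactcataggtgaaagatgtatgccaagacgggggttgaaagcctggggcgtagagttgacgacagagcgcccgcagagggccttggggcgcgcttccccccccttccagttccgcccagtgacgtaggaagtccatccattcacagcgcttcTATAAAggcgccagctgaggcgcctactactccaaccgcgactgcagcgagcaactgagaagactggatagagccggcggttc

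The AP-1 genes come first. Fos encodes the founding subunit of AP-1, which binds DNA only as a dimer with a Jun protein. Fos had 8.31, 0.178, 25.0 and 4.08 CPM in relapse replicates 1 to 4. At day 14, Fos had 2.09 and 4.604 CPM in the AG120 libraries, against 13.3 and 10.6 CPM in the vehicle libraries. For Fos at day 5 the values were 14.2, 7.39 and 9.90 CPM in the AG120 libraries, against 9.82, 2.65 and 1.87 CPM in the vehicle libraries. Its AG120 and vehicle libraries did not overlap at day 14, where AG120 was lower, and overlapped at day 5 through vehicle day 5 replicate 1. Relapse held both extremes: replicate 3 was the highest of all 14 libraries and replicate 2, with 1 count of Fos, the lowest.

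Fosb encodes a second Fos-family subunit. Fosb had 5.86, 0.178, 13.1 and 1.199 CPM in relapse replicates 1 to 4. At day 14, Fosb had 2.09 and 4.40 CPM in the AG120 libraries, against 10.1 and 6.91 CPM in the vehicle libraries. For Fosb at day 5 the values were 15.1, 13.6 and 15.0 CPM in the AG120 libraries, against 26.6, 3.09 and 3.52 CPM in the vehicle libraries. The 3 AG120 day 5 libraries lay close together, and vehicle day 5 replicate 1 was above all of them while the other vehicle day 5 libraries were below. Relapse replicate 2 again had 1 count.

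Jun encodes the partner of Fos in AP-1 and is itself an AP-1 target. Jun had 77.3, 5.88, 70.3 and 15.9 CPM in relapse replicates 1 to 4. At day 14, Jun had 9.25 and 18.8 CPM in the AG120 libraries, against 119.7 and 95.4 CPM in the vehicle libraries. For Jun at day 5 the values were 225, 89.5 and 135 CPM in the AG120 libraries, against 208, 36.1 and 43.6 CPM in the vehicle libraries. Both AG120 day 14 libraries and relapse replicates 2 and 4 were below every vehicle library, and AG120 day 5 replicate 1 was the highest of the 14. The group means of Jun, in CPM ± SD, were 42.3 ± 36.6 in relapse (n = 4), 14.0 ± 6.76 in AG120 day 14 (n = 2), 149.7 ± 68.8 in AG120 day 5 (n = 3), 108 ± 17.2 in vehicle day 14 (n = 2) and 96.0 ± 97.4 in vehicle day 5 (n = 3). Ordered by mean, neighbouring groups differed by less than the larger of their SDs. Jun shares its locus with Junos on the other strand; whether the counting used strand is not given in the sources used here.

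Junb encodes a Jun-family subunit that in mouse myeloid progenitors restrains proliferation. Junb had 56.1, 29.0, 154 and 81.5 CPM in relapse replicates 1 to 4. At day 14, Junb had 26.6 and 23.0 CPM in the AG120 libraries, against 58.2 and 44.8 CPM in the vehicle libraries. For Junb at day 5 the values were 69.2, 40.3 and 70.4 CPM in the AG120 libraries, against 88.6, 27.0 and 25.4 CPM in the vehicle libraries. The AG120 day 14 libraries were below the vehicle day 14 libraries, but close to vehicle day 5 replicates 2 and 3. All 4 relapse libraries were above the AG120 day 14 libraries and above vehicle day 5 replicates 2 and 3, replicate 2 only narrowly. Junb overlaps Prdx2 on the other strand.

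Among the zinc finger factors, Egr1 restrains the cycling of mouse blood stem cells and is switched on by MAP kinase signals. Egr1 had 1.70, 2.32, 102 and 5.99 CPM in relapse replicates 1 to 4. At day 14, Egr1 had 3.28 and 4.20 CPM in the AG120 libraries, against 14.4 and 17.3 CPM in the vehicle libraries. For Egr1 at day 5 the values were 92.0, 37.0 and 48.9 CPM in the AG120 libraries, against 60.2, 5.19 and 3.96 CPM in the vehicle libraries. The gene had the widest spread within groups of the set. In relapse, replicate 3 had 102 CPM while replicates 1, 2 and 4 had 1.70 to 5.99 CPM, and in vehicle day 5, replicate 1 had 60.2 CPM while replicates 2 and 3 had 5.19 and 3.96 CPM. All 3 AG120 day 5 libraries were at 37.0 CPM or above. Group means ± SD of Egr1 were 27.9 ± 49.2 CPM in relapse (n = 4), 3.74 ± 0.650 CPM in AG120 day 14 (n = 2), 59.3 ± 29.0 CPM in AG120 day 5 (n = 3), 15.8 ± 2.06 CPM in vehicle day 14 (n = 2) and 23.1 ± 32.1 CPM in vehicle day 5 (n = 3). The SD exceeded the mean in relapse and in vehicle day 5.

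Klf6, a Krüppel-like zinc finger factor, was the steadiest of the set. Klf6 had 49.5, 62.4, 72.0 and 37.5 CPM in relapse replicates 1 to 4. At day 14, Klf6 had 17.0 and 19.2 CPM in the AG120 libraries, against 43.7 and 48.5 CPM in the vehicle libraries. For Klf6 at day 5 the values were 38.6, 17.3 and 23.3 CPM in the AG120 libraries, against 70.8, 38.2 and 37.2 CPM in the vehicle libraries. Both AG120 day 14 libraries were below all vehicle and relapse libraries. At day 5, AG120 replicate 1 lay just above the 2 lower vehicle libraries, and the other AG120 libraries were below all of them. Relapse libraries spanned nearly the same range as the vehicle libraries.

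Ier2 encodes a nuclear immediate early response protein. Ier2 had 13.8, 20.1, 65.5 and 24.9 CPM in relapse replicates 1 to 4. At day 14, Ier2 had 8.95 and 13.01 CPM in the AG120 libraries, against 28.3 and 39.1 CPM in the vehicle libraries. For Ier2 at day 5 the values were 28.3, 24.4 and 23.6 CPM in the AG120 libraries, against 39.6, 21.1 and 25.0 CPM in the vehicle libraries. The AG120 day 5 libraries lay inside the range of vehicle day 5. The AG120 day 14 libraries, with 30 and 65 counts, were the lowest of the 14, and relapse replicate 1 came next.

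The product of Ier5 is known in human cells to work with a phosphatase on the heat shock factor HSF1. Ier5 had 39.3, 36.0, 113 and 38.6 CPM in relapse replicates 1 to 4. At day 14, Ier5 had 25.4 and 34.03 CPM in the AG120 libraries, against 54.2 and 51.0 CPM in the vehicle libraries. For Ier5 at day 5 the values were 172, 86.5 and 119 CPM in the AG120 libraries, against 167, 31.4 and 32.8 CPM in the vehicle libraries. Among vehicle day 5 libraries, replicates 2 and 3 were below every AG120 day 5 library and replicate 1 was nearly as high as the highest of them. Relapse replicates 1, 2 and 4 were close together and replicate 3 was far above them.

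Btg2 belongs to the antiproliferative BTG/TOB family, which recruits a deadenylase to transcripts. Btg2 had 4.53, 3.74, 13.8 and 3.60 CPM in relapse replicates 1 to 4. At day 14, Btg2 had 1.19 and 4.00 CPM in the AG120 libraries, against 7.47 and 6.22 CPM in the vehicle libraries. For Btg2 at day 5 the values were 3.05, 0.840 and 2.24 CPM in the AG120 libraries, against 9.11, 5.30 and 4.95 CPM in the vehicle libraries. The AG120 and vehicle libraries did not overlap on either day, and AG120 was lower on both. The counts were few, 4 to 20 in the AG120 libraries, against 45 to 64 in the vehicle libraries.

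Dusp1 encodes the feedback phosphatase of JNK, p38 and ERK kinases. Dusp1 had 11.9, 4.45, 27.1 and 6.23 CPM in relapse replicates 1 to 4. At day 14, Dusp1 had 2.98 and 4.604 CPM in the AG120 libraries, against 15.4 and 15.9 CPM in the vehicle libraries. For Dusp1 at day 5 the values were 17.7, 8.06 and 8.30 CPM in the AG120 libraries, against 39.6, 12.7 and 12.6 CPM in the vehicle libraries. The AG120 day 14 libraries were the lowest, apart from relapse replicate 2, which lay between them, and vehicle day 5 replicate 1 was the highest of the 14. The Dusp1 gene model overlaps 4 others, Ergic1 and Gm8225 on the other strand and 2 unnamed models on its own.

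**Figure D1:**
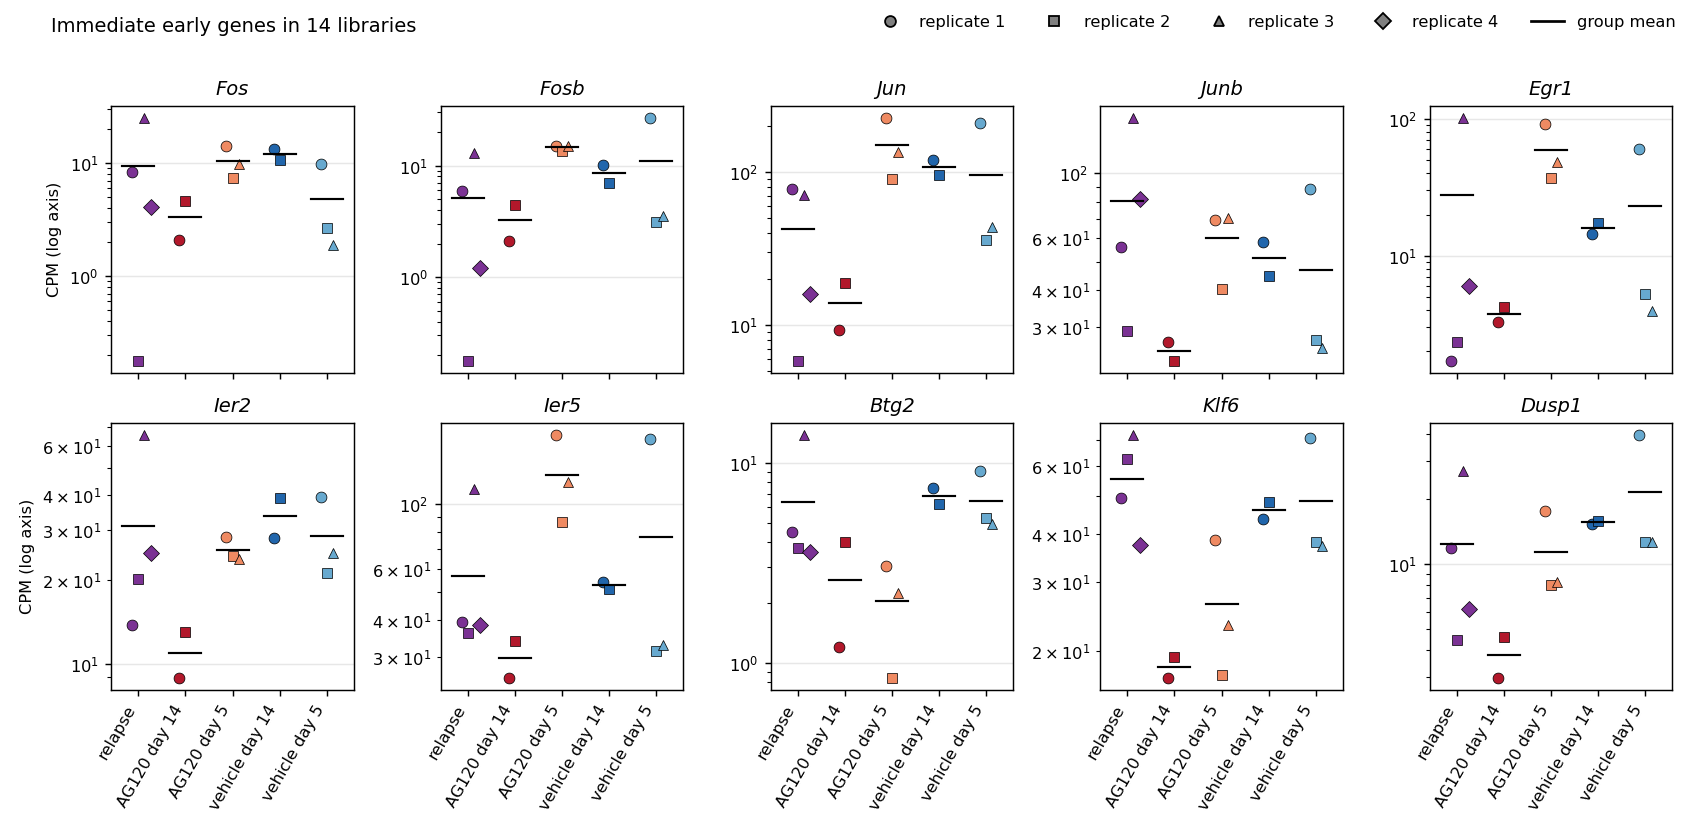
Level of each immediate early gene in CPM (log axis) in 14 libraries, by group from left to right as relapse, AG120 day 14, AG120 day 5, vehicle day 14 and vehicle day 5; symbols mark the replicate and bars the group mean. AG120 day 14 has the lowest group mean for 9 of 10 genes, and single libraries of relapse and vehicle day 5 sit far above the rest of their group.

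The order of the groups was partly shared. AG120 day 14 had the lowest group mean for 9 of 10 genes, and AG120 day 5 for Btg2. The highest group mean was in AG120 day 5 for Fosb, Jun, Egr1 and Ier5, in vehicle day 14 for Fos, Ier2 and Btg2, in relapse for Junb and Klf6, and in vehicle day 5 for Dusp1. Part of this order rested on relapse replicate 3 and vehicle day 5 replicate 1. With both left out, AG120 day 14 had the lowest mean for 6 genes, relapse for Egr1 and Fosb, vehicle day 5 for Fos and AG120 day 5 for Btg2. The highest mean of Junb was then 59.97 CPM in AG120 day 5, where relapse had 55.6 CPM, and that of Dusp1 was 15.6 CPM in vehicle day 14, where vehicle day 5 had 12.7 CPM; the highest group of the other 8 genes did not change. By library, relapse replicate 3 was the highest for 6 genes, AG120 day 5 replicate 1 for Jun and Ier5, and vehicle day 5 replicate 1 for Fosb and Dusp1.

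After 5 days of AG120, Btg2 and Klf6 fell and no member rose. The log2 fold change of Btg2, AG120 over vehicle, was -1.62 ± 0.59 (SE, adjusted p 0.0448 by the quasi-likelihood test of edgeR, Benjamini-Hochberg adjusted), and that of Klf6 was -0.87 ± 0.33 (adjusted p 0.0493 by the same test). These 2 of 10 compare with 39.4% of all genes tested that passed in either direction and 19.3% that fell. Btg2 was the 1 member without overlap of the libraries, against 29.8% of all genes tested that were lower without overlap. The other 8 had log2 fold changes from -0.90 in Dusp1 to 1.40 in Egr1, with wide 95% intervals: -1.78 to 4.58 for Egr1, -1.04 to 3.42 for Fos, and -1.25 to 0.93 for Ier2. The median of the 10 was 0.40, against -0.00087 over all genes tested.

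The day 5 result turned on single libraries, above all vehicle day 5 replicate 1. Without that library, neither Btg2 (-1.31 ± 0.64, adjusted p 0.137) nor Klf6 (-0.51 ± 0.29, adjusted p 0.202) passed edgeR's test, and Ier5 rose by 1.97 ± 0.52 on the log2 scale (adjusted p 0.0169); 32% of genes tested passed in that fit and 15.9% rose. Of the 10 genes, 6 were then higher in all 3 AG120 libraries than in both remaining vehicle libraries: Fos, Fosb, Jun, Junb, Egr1 and Ier5. How many of all genes tested had that order was not counted, so this order describes these libraries only. When relapse replicate 3, which enters only through the shared spread, was also left out, 6 genes passed. Egr1 had a log2 fold change of 3.69 ± 0.48 (adjusted p 0.000212), Fos 2.21 ± 0.75 (adjusted p 0.0445) and Fosb 2.13 ± 0.61 (adjusted p 0.0193). The remaining calls were Ier5 at 1.97 ± 0.23 (adjusted p 1.71e-05), Junb at 1.19 ± 0.37 (adjusted p 0.0302) and Btg2, which fell, at -1.31 ± 0.41 (adjusted p 0.0210). In that fit 34.3% of genes tested passed in either direction and 17.3% rose. Both libraries were chosen for leaving out because these genes were high in them, so the 6 calls describe the libraries that remain and are no test of AG120. Leaving out AG120 day 5 replicate 2 or replicate 3 also ended both calls, with adjusted p values of 0.143 and 0.0988 for Btg2 and of 0.152 and 0.135 for Klf6. Leaving out vehicle day 5 replicate 2 or replicate 3 ended that of Btg2 alone, with adjusted p values of 0.0635 and 0.0541.

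After 14 days of AG120, all 10 genes were lower than in vehicle, without overlap of the libraries, and Klf6 passed the test. The log2 fold change of Klf6 was -1.34 ± 0.43 (adjusted p 0.0276, edgeR's quasi-likelihood test), 1 of 10 called, against 34.7% of all genes tested that passed in either direction and 17.9% that fell. Lower values without overlap, 2 libraries against 2, were found for 36.3% of all genes tested. Jun had the largest change, -2.89 ± 1.30 (95% interval -5.81 to 0.02, adjusted p 0.115), followed by Egr1 at -2.05 ± 2.39 (adjusted p 0.546), Dusp1 at -1.996 ± 1.03 (adjusted p 0.166) and Fos at -1.77 ± 1.37 (adjusted p 0.353). The smallest was in Ier5, -0.81 ± 0.90. The median of the 10 was -1.47, against -0.01 over all genes tested.

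How many of these differences passed depended on the libraries that set the spread. The fit over 14 libraries shares 1 estimate of spread per gene, to which relapse and vehicle day 5 contribute. When the fit held only the 4 day 14 libraries, all 10 genes passed and fell, from -2.90 ± 0.22 in Jun (adjusted p 1.33e-09) and -2.07 ± 0.28 in Egr1 (adjusted p 3.98e-06) to -0.83 ± 0.17 in Ier5 (adjusted p 0.000429), while 24.6% of the genes tested in that fit fell. The fold changes were nearly those of the fit over 14 libraries. With 2 libraries a group, that fit rests on the spread inside each group of 2. DESeq2 on all libraries called Jun, Ier2 and Klf6, and leaving out any of the 4 day 14 libraries ended the call of Klf6, with adjusted p values of 0.0630 to 0.129.

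**Figure D2:**
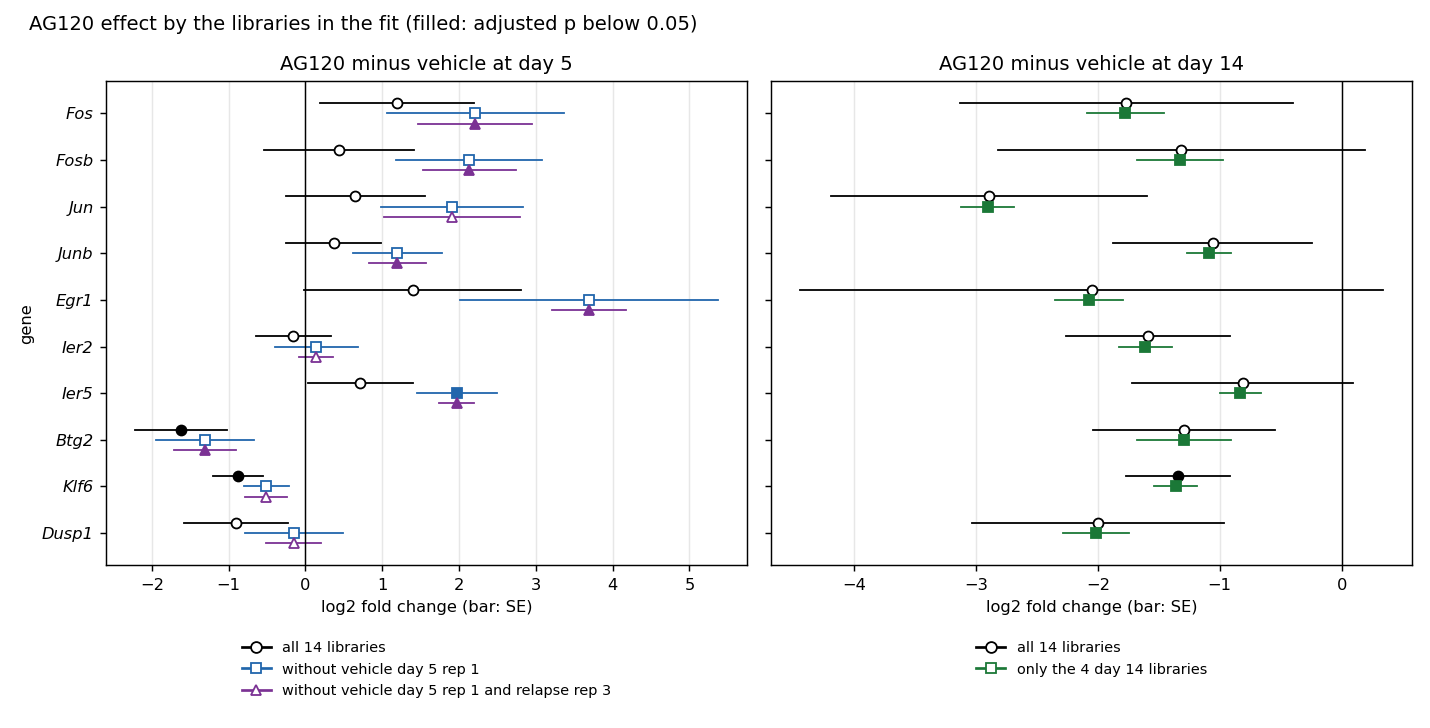
Log2 fold change of AG120 over vehicle at day 5 (left) and day 14 (right), with SE as bars, under different sets of libraries in edgeR's fit; filled symbols had an adjusted p below 0.05. At day 5 the values of Fos, Fosb, Jun, Junb, Egr1 and Ier5 move upward without vehicle day 5 replicate 1, and at day 14 the values stay in place while the bars shorten.

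Both AG120 effects use different vehicle libraries, so they can be set against each other. The day 14 effect was below the day 5 effect for 9 of 10 genes, all but Btg2, with a median difference of -1.48 on the log2 scale against -0.06 over all genes tested. None of the 10 differences passed edgeR's quasi-likelihood test, 0 of 10 had an unadjusted p under 0.05, against 12.4% of all genes tested, and DESeq2 and limma-voom also called 0; 0.934% of all genes tested passed. Jun had the largest difference, -3.54 ± 1.58 (95% interval -7.09 to 0.01, adjusted p 0.405), and Egr1 had -3.45 ± 2.76 (95% interval -9.65 to 2.76, adjusted p 0.695). Without vehicle day 5 replicate 1 and relapse replicate 3, the differences of Egr1 (-5.74 ± 0.76, adjusted p 0.0102), Ier5 (-2.79 ± 0.34, adjusted p 0.00485) and Ier2 (-1.74 ± 0.35, adjusted p 0.0299) passed, while 0.849% of genes tested did. Leaving out the vehicle day 5 library in which these genes were high raises the day 5 effect by construction, and both libraries were chosen after their values were seen, so these 3 calls are no test of the difference between the days.

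Within AG120, the day 14 libraries were below the day 5 libraries without overlap for 8 genes, all but Btg2 and Klf6, against 23.5% of all genes tested. Egr1 had a log2 difference, day 14 over day 5, of -3.96 ± 2.18 (adjusted p 0.393) and Jun of -3.37 ± 1.26 (adjusted p 0.190). No member passed edgeR's test, 2 had an unadjusted p under 0.05, against 18.1% of all genes tested, DESeq2 called Jun (-3.38 ± 1.04, adjusted p 0.0294), and 4.1% of all genes tested passed. With only these 5 libraries in the fit, Fos, Fosb, Junb, Ier2, Ier5 and Dusp1 fell, from -2.05 ± 0.27 in Fosb (adjusted p 4.84e-06) to -1.15 ± 0.19 in Ier2 (adjusted p 0.000107), against 6.87% of genes tested that fell. Between the vehicle groups, day 14 over day 5, the 10 genes had a median of 0.01, and 0 of them passed, as did 0% of all genes tested; at an unadjusted p under 0.05 there were 0 members and 574 genes in all (4.79%), and DESeq2 called 0 members. Fos alone was separate there, with 13.3 and 10.6 CPM at day 14 and 9.82, 2.65 and 1.87 CPM at day 5, against 15.2% of all genes tested that were higher at day 14 without overlap.

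In relapse, no member passed the test against vehicle, and Btg2 and Klf6 rose relative to AG120. Relapse, set against the mean of the vehicle groups, had a median of -0.0027 over the 10 genes, from -1.26 in Jun to 0.72 in Junb, and 0 passed edgeR's quasi-likelihood test, 0 had an unadjusted p under 0.05 and DESeq2 called 0; of all genes tested, 0.183% passed and 11.6% had an unadjusted p under 0.05. The intervals were wide for Egr1 (-2.10 to 3.29) and Fos (-1.41 to 2.14) and narrow for Klf6 (-0.34 to 0.79). Relapse, set against the mean of the AG120 groups, was 1.33 ± 0.28 in Klf6 (adjusted p 0.00142) and 1.43 ± 0.50 in Btg2 (adjusted p 0.0269), so 2 of 10 rose, against 54% of all genes tested that passed in either direction and 27.9% that rose. Both are the genes that fell at day 5; the comparisons share the AG120 libraries, so the values stand side by side and are not independent.

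The call of Btg2 rested on relapse replicate 3 and on AG120 day 14 replicate 1. Without AG120 day 14 replicate 1, Btg2 had 1.16 on the log2 scale with an adjusted p of 0.0924. Without relapse replicate 3, Btg2 had 0.71 on the log2 scale with an adjusted p of 0.125 by edgeR's test, and Klf6 had 1.18 with an adjusted p of 0.00485. With both libraries that stood apart left out, relapse minus AG120 was -2.06 ± 0.50 in Egr1 (adjusted p 0.00563), -1.63 ± 0.61 in Fosb (adjusted p 0.0454) and -0.69 ± 0.19 in Ier5 (adjusted p 0.00657), where 0.92 ± 1.42, -0.46 ± 1.01 and -0.11 ± 0.59 were found with all libraries. Without relapse replicate 3 alone, Egr1 had -2.06 with an adjusted p of 0.224, so the sign turned with 1 library and the call needed both left out. Those 3 calls too follow from a choice made on the values of these genes and are no test of relapse. In the fit without both, 24.1% of genes tested fell and 26.2% rose.

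**Figure D3:**
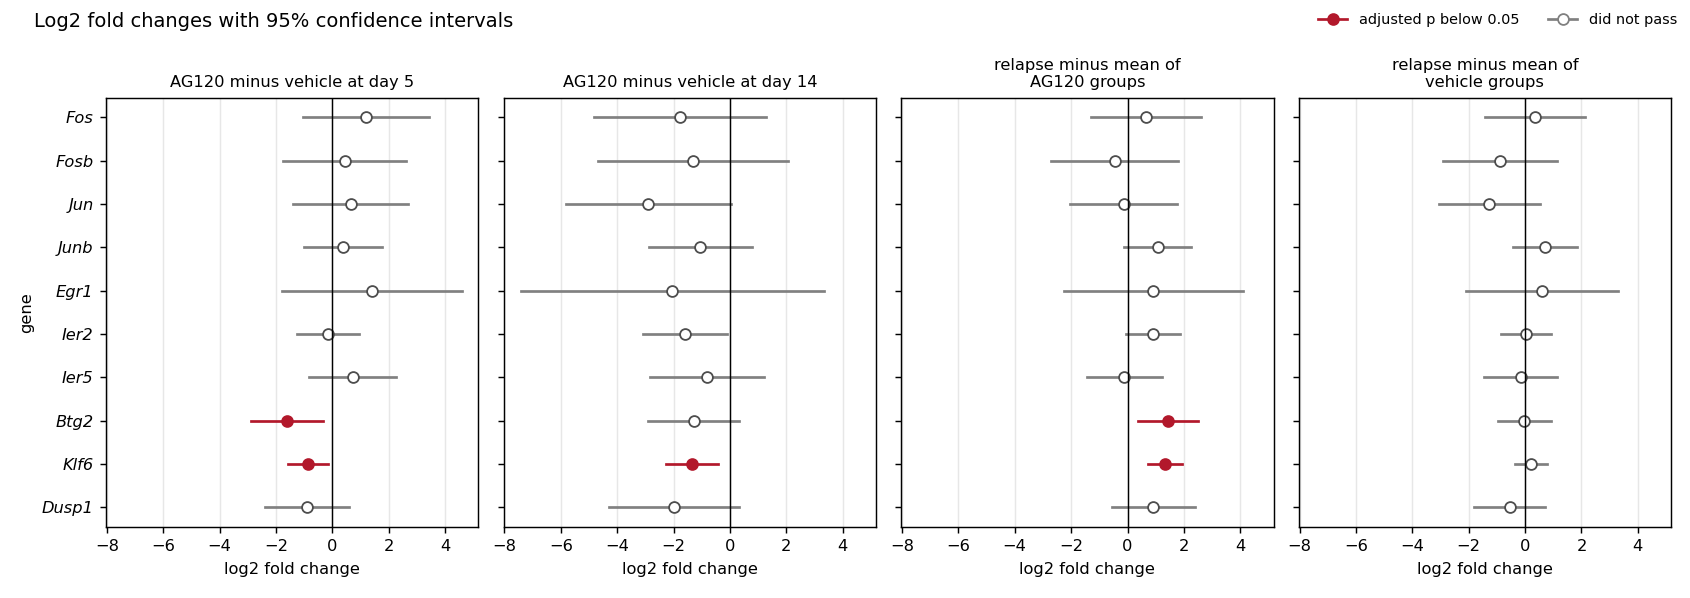
Log2 fold change (x axis) of each gene in 4 comparisons, with 95% confidence intervals from edgeR's fit over 14 libraries; red points had an adjusted p below 0.05. Btg2 and Klf6 pass in the day 5 comparison and in relapse over AG120, Klf6 passes at day 14, and the intervals of Egr1 are the widest in all 4 panels.

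The 10 genes moved together from library to library within groups. Deviations of log2 CPM from the group mean were correlated with a Pearson r above 0 in 45 of 45 pairs of members, with a median of 0.74 over 14 libraries, from 0.34 between Fos and Klf6 to 0.95 between Fosb and Jun. Of the pairs, 91.1% had an r above 0.5, against 12.5% of all pairs of genes tested. Pairs among the AP-1 genes Fos, Fosb and Jun and the phosphatase Dusp1 had 0.89 to 0.95, and Egr1 was closest to Ier2 with 0.93. Without the relapse libraries and vehicle day 5 replicate 1, the pairs among Fos, Fosb, Jun and Dusp1 had 0.42 to 0.88, Egr1 and Ier2 had 0.47, and Egr1 was closest to Klf6 with 0.97. The points share libraries and depth, and the deviations of a group sum to 0. Over those 9 libraries, 44 of 45 pairs stayed above 0 and 32 above 0.5. The share over all pairs of genes tested was not taken for those 9 libraries, so these counts cannot be set beside the 12.5%.

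**Figure D4:**
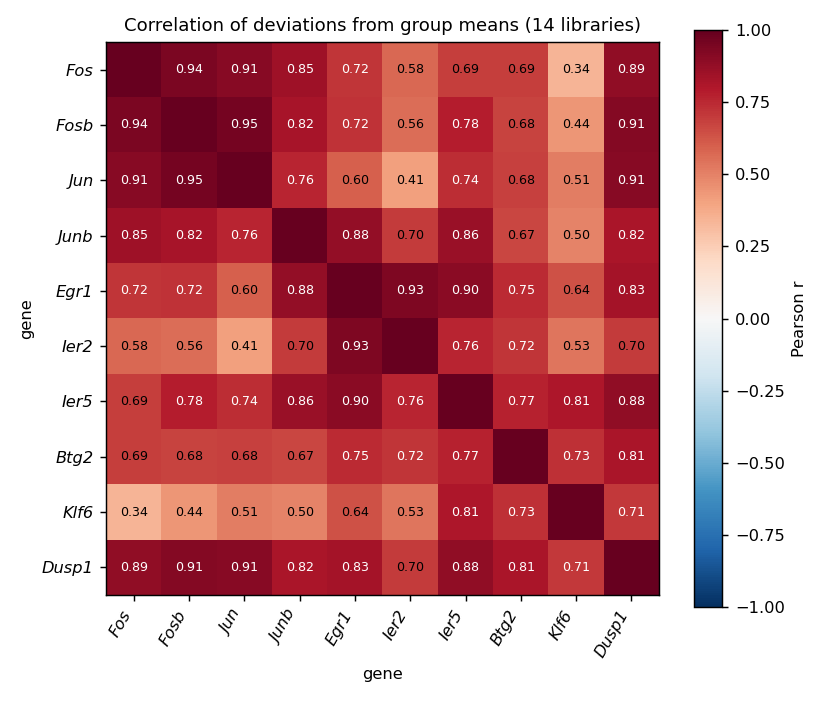
Pearson correlation over 14 libraries of the deviations from group means for each pair of immediate early genes. All off-diagonal values are above 0, from 0.34 for Fos and Klf6 to 0.95 for Fosb and Jun.

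In several libraries the deviations of the 10 genes shared 1 direction. AG120 day 5 replicate 1 was above its group mean for 10 of 10 genes too, by 0.49 on average. AG120 day 5 replicate 2 and vehicle day 5 replicates 2 and 3 were below their group means for all 10. Over all genes tested, 51.3% were above the group mean in AG120 day 5 replicate 1 and 50.4% in its replicate 2. In vehicle day 5 replicates 2 and 3 these shares were 49.8% and 53.3%. In relapse replicate 2 the mean deviation was -1.29, with Fos, Fosb and Jun far below and Klf6 slightly above the group mean. Vehicle day 14 replicates differed least, by a mean deviation of 0.05 on either side.

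**Figure D5:**
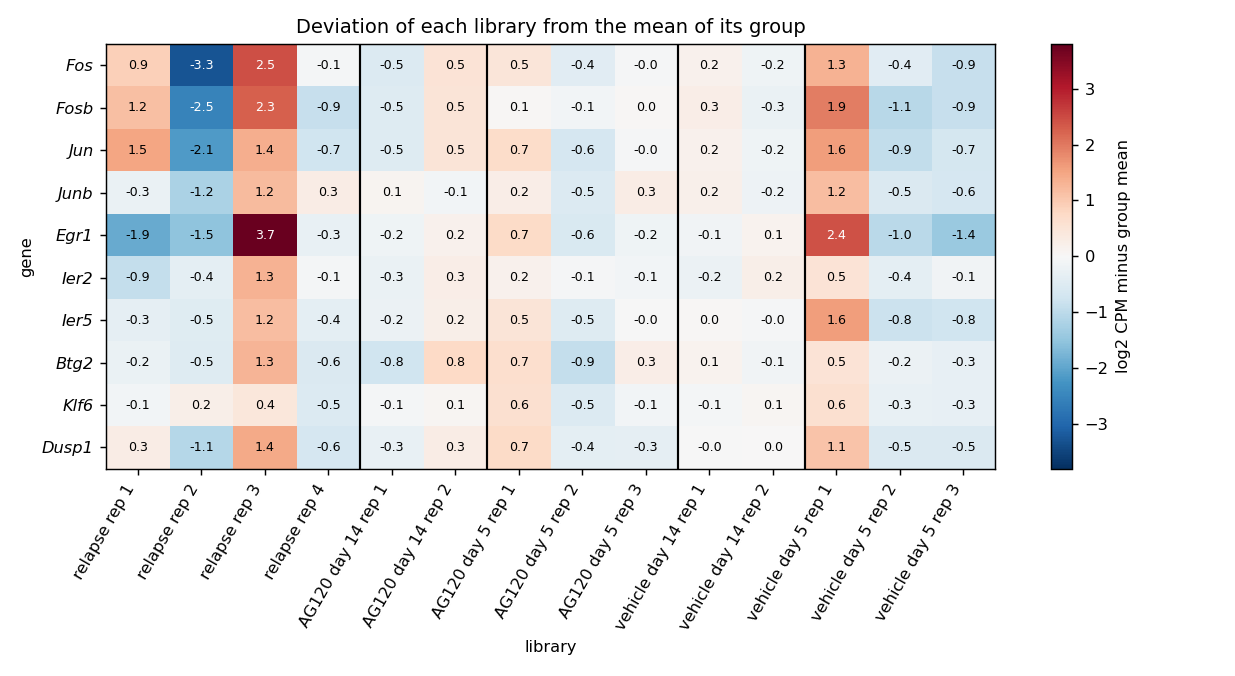
Deviation of each gene in each library from its group mean (log2 CPM), with groups from left to right as relapse, AG120 day 14, AG120 day 5, vehicle day 14 and vehicle day 5. Relapse replicate 3 and vehicle day 5 replicate 1 are above 0 for all 10 genes, and relapse replicate 2 has the deepest negative values.

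The spread inside groups was large for most members. The pooled within-group SD of log2 CPM had a median of 0.836 over the 10 genes, against 0.278 over all genes tested. Egr1 (1.83) had a larger SD than 99.99% of genes tested, Fos (1.54) than 99.9%, Fosb (1.49) than 99.8% and Jun (1.27) than 99.7%. Klf6 (0.439), with a larger SD than 75.9%, and Ier2 (0.616), with 89.7%, were the steadiest. Without the relapse libraries and vehicle day 5 replicate 1, the median fell to 0.404, against 0.219 over all genes tested. Egr1 then had a larger SD than 85.9% of genes tested, Fos than 86.7%, Fosb than 76.2% and Jun than 91.0%. The share did not drop for Btg2, at 97.3% against 95.3% with all libraries, or for Klf6, at 77.7%.

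Genes outside the set with the most similar pattern were found by the correlation of their log2 CPM with the mean of the standardised members, over 14 libraries. By level these were Snord104 (r = 0.87), Jund (0.83), Chkb (0.82), Top3b (0.81) and Calm2 (0.79). By deviation from the group means they were Jund (0.94), Ppp1r15a (0.93), Ier3 (0.91), Rbm39 (0.89) and Dusp2 (0.88). Jund, the AP-1 partner that is present in resting cells, was in both lists. Jund, Ppp1r15a, Ier3 and Dusp2 also sit in the lists of related genes below.

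Other AP-1 partners and their relatives were measured for 11 of 15 genes. At day 5 of AG120, 0 rose and 3 fell, Fosl2 (-2.21 on the log2 scale), Jdp2 (-2.43) and Mafg (-0.44), with a list median of -0.46; these are 27.3% of the 11, against 39.4% of all genes tested that passed. At day 14, Mafk (0.99) was among the genes that rose, and Batf (-2.68), Jdp2 (-2.11) and Fosl2 (-1.95) fell. In all, 5 of the 11 passed at day 14 (45.5%), against 34.7% of all genes tested. In relapse over AG120, 5 rose, among them Jdp2 (2.63), Fosl2 (2.07) and Batf (1.97), and 0 fell. Those 45.5% compare with 54% of all genes tested that passed in either direction and 27.9% that rose.

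Other immediate early transcription factors, 11 of 16 measured, went both ways at day 5. Hes1 (3.54), the clock gene Per1 (1.85) and Myc (1.40) were the 3 with the smallest adjusted p of 4 that rose, and Csrnp1 (-1.66) and Cebpd (-0.95) fell. Together 54.5% of the list passed, against 39.4% of all genes tested. At day 14, 0 rose and Csrnp1 (-3.52) fell, with a list median of -1.003, and 9.09% of the list passed, against 34.7% of all genes tested. Myc was the member of this list that passed the test of the difference between the days, at -1.74, but this was lost under 9 of 20 alternatives, with adjusted p values up to 0.149. In relapse over AG120, 4 rose (36.4%, against 54% of all genes tested that passed), among them Csrnp1 (3.08), Cebpd (0.83) and Klf10 (0.79).

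Feedback regulators and other immediate early genes were measured for 23 of 28 genes. At day 14, 0 rose and 12 fell, with a list median of -2.30 against -0.01 over all genes tested; 52.2% of the list passed, against 34.7% of all genes tested. Dusp5 (-4.83) and Dusp6 (-2.40), phosphatases of ERK, and the kinase gene Pim1 (-3.15) were among them. At day 5, 1 rose (Gadd45a, 0.95) and 5 fell, among them Pim1 (-1.31), Dusp6 (-1.70) and Spred1 (-0.82), 26.1% of the list against 39.4% of all genes tested. Pim1 (-1.83), Nfkbia (-3.20) and Dusp5 (-3.71) passed edgeR's test of the difference between the days, but each was lost under some of 20 alternatives. Pim1 missed the threshold under 2, with adjusted p values up to 0.0802, Dusp5 under 9, up to 0.259, and Nfkbia under 13, up to 0.207. Relapse over AG120 had 14 that rose and 3 that fell, with Dusp5 (3.70), Pim1 (2.81) and Dusp6 (2.60) rising; 73.9% passed, against 54% of all genes tested. Dusp1, the phosphatase among the 10, did not pass in any of these 3 comparisons.

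Upstream, 13 of 13 factors of the SRF, ternary complex and CREB families were measured. At day 5, Atf1 (0.65) rose and 6 fell, including Mrtfa (-2.13), Elk3 (-2.27) and Creb1 (-0.63). Day 14 gave 1 that rose and 4 that fell, with Atf1 (0.93) higher and Elk3 (-3.18), Mrtfa (-1.84) and Creb1 (-0.51) lower. The share that passed was 53.8% at day 5, against 39.4% of all genes tested, and 38.5% at day 14, against 34.7%. All 17 MAP kinase pathway genes were measured: 2 rose and 4 fell at day 5, and 2 rose and 6 fell at day 14. These shares, 35.3% at day 5 and 47.1% at day 14, stand beside 39.4% and 34.7% of all genes tested, so the day 5 count was not above the background. Rps6ka1, a kinase downstream of ERK, fell by 2.05 at day 5 and by 1.49 at day 14, and Mapk3, which encodes ERK1, fell by 1.03 and 1.22. Mapk9, which encodes JNK2, rose by 1.198 and 0.92. Transcript levels of kinases do not measure their activity.

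Heat shock and ubiquitin genes, some of which are known to respond to the handling of cells, had a higher summed level in the AG120 groups. The sum over 17 genes was 6208 and 6913 CPM in AG120 day 14 and 6141 to 7864 CPM in AG120 day 5, against 4155 and 4342 CPM in vehicle day 14 and 3976 to 4191 CPM in vehicle day 5. Vehicle day 5 replicate 1 had 4191 CPM, the highest of its group, and relapse replicate 3 had 3836 CPM, where the other relapse libraries had 3658 to 4972 CPM. The summed level of the 10 immediate early genes in the same libraries was 720.0 CPM in vehicle day 5 replicate 1, against 183 and 191 CPM in its other libraries, and 655 CPM in relapse replicate 3, against 164 to 268 CPM in its other libraries. The stress-inducible Hsp70 genes Hspa1a and Hspa1b made up at most 4.45% of the heat shock sum in any library, so they were also read singly, a choice made after their values were seen; they are near-identical copies whose reads may be split between them. Hspa1a had 13.6, 0, 0.413 and 0.599 CPM in relapse replicates 1 to 4, where replicate 2 had a count of 0. At day 14 it had 8.06 and 8.01 CPM in AG120, against 30.5 and 24.0 CPM in vehicle. At day 5 it had 227, 85.5 and 136 CPM in AG120, against 65.4, 15.03 and 13.4 CPM in vehicle. Vehicle day 5 replicate 1 was thus above its group for Hspa1a as for the immediate early genes, and relapse replicate 3 was not. Hspa1b was 55.4 CPM in vehicle day 5 replicate 1, against 14.8 and 15.5 CPM in the other vehicle day 5 libraries. Their part in the levels of the immediate early genes was not tested. At day 5 of AG120, 7 heat shock genes rose, among them Hspd1 (1.49) and Bag3 (2.92), and 2 fell; at day 14, 4 rose and 3 fell. The shares that passed were 52.9% at day 5, against 39.4% of all genes tested, and 41.2% at day 14, against 34.7%.

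Markers of progenitors and of other cell types also moved with AG120. The summed level of 12 erythroid markers was 1251 and 1525 CPM in AG120 day 14 and 415 to 538 CPM in AG120 day 5, against 88.2 and 131 CPM in vehicle day 14 and 49.8 to 125 CPM in vehicle day 5. It was 415 CPM in relapse replicate 3, against 55.9 to 99.6 CPM in the other relapse libraries, and 49.8 CPM in vehicle day 5 replicate 1, the lowest of the 14. The 10 stem and progenitor markers summed to 120 and 138 CPM in AG120 day 14 and 301 to 339 CPM in AG120 day 5, against 857 and 886 CPM in vehicle day 14 and 832 to 1035 CPM in vehicle day 5. Neutrophil markers summed to 1303 and 1701 CPM in AG120 day 14 and 123 to 209 CPM in AG120 day 5, against 981 and 1196 CPM in vehicle day 14 and 586 to 777 CPM in vehicle day 5. By edgeR's test, 0 of the 10 neutrophil markers rose and 1 fell at day 14 of AG120 (10%). At day 5, 0 rose and 3 fell (30%). Erythroid markers had 9 of 12 that rose at day 14 (75%) and 6 at day 5 (50%), and 0 fell. Of 7 progenitor markers tested, 7 fell at day 14 (100%), and 5 fell and 1 rose at day 5 (85.7%). Megakaryocyte and platelet markers had 6 of 7 that fell at day 5 (85.7%) and 2 at day 14 (28.6%), and 0 rose. Of 8 mast cell, basophil and eosinophil markers tested, 4 fell and 2 rose at day 5 (75%), and 5 fell and 1 rose at day 14 (75%). Of all genes tested, 34.7% passed at day 14 and 39.4% at day 5. At most 2 of the 10 neutrophil and 1 of the 12 erythroid markers were at 0 in a library. B and plasma cell markers summed to 0.298 to 3.08 CPM. The part of these markers, and of the lower depth of AG120 day 14, in the levels of the immediate early genes was not tested. The percentage of counts in ribosomal RNA gene models was 59.8% in vehicle day 5 replicate 1 and 60.6% in relapse replicate 3, inside the range of the other libraries of all groups. Within vehicle day 5, replicate 1 was the highest, where the others had 57.1% and 50.9%. Within relapse, replicate 3 was the lowest, where the others had 63.7% to 66.1%.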

How the data were processed

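Raw counts for each Ensembl gene in 14 libraries were deposited by the authors in 1 table, and 0 of its columns were left unused. Per the submitters' processing notes, bcl2fastq 2.17.1.14, cutadapt 1.14, HISAT2 2.1.0, featureCounts of Subread 1.6.3, R 3.6.2, limma 3.42.2 and edgeR 3.28.1 were used with build mm10; the strand setting is not given in the sources used here. The members, gene lists and tests were chosen with earlier results of these data known.

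Counts were analysed in R 4.3.3 with edgeR 4.0.16. Of 52636 genes (52403 with a symbol), filterByExpr with a minimum count of 10 kept 11994. Library sizes were scaled by TMM, log2 CPM used a prior count of 2, and 1 quasi-likelihood model was fitted over the 5 groups with 7 contrasts. P-values were adjusted by Benjamini-Hochberg over all genes tested, and an adjusted p below 0.05 counted as passed. Intervals are 95% confidence intervals. Alternatives used DESeq2 1.42.0, limma 3.58.1 (voom), other scalings and filters, thinned libraries, a replicate block and left-out libraries. The text names the 10 members in every comparison, up to 3 genes per list and direction of smallest adjusted p among those that passed, checks of sort and target, and the 5 genes outside the set nearest to its mean by level and by deviation; some genes that this rule names are not reported here. The count test was tested on simulated data. Counts of low genes carry counting error: Btg2 had 4 counts in AG120 day 14 replicate 1.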

Additional observations from a re-analysis of the deposited data

Results flagged for a closer look

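In relapse, 1 library lay far from the other 3 for Egr1, Ier5 and Btg2, and it was replicate 3, the highest, each time. The gap between replicate 3 and the next library, divided by the range of the group, was 0.957 for Egr1, 0.957 for Ier5 and 0.908 for Btg2, above Dixon's 95% critical value for 4 samples. These gaps are on the CPM scale, where the other 7 of the 10 genes stayed below that value. On the log2 CPM scale, chosen after seeing the data, the gap was 0.709 for Egr1, which is below it, 0.923 for Ier5 and 0.832 for Btg2. For normally distributed values, chance gives such a gap in about 1 of 20 groups. That rate was not checked for CPM, and the 3 genes share the library. Erythroid markers were also higher in this library, 415 CPM in sum, than in the other relapse libraries; their part was not tested.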

How the results depend on the processing

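Depth and few mice limited these results, and vehicle day 5 replicate 1 and relapse replicate 3 were left out together after their values were seen. In AG120 minus vehicle, the members called at day 5 were 1 with upper quartile factors, 1 with no filter on low counts, 0 with thinned libraries and 1 with only the groups compared, and 0 to 6 with libraries left out. At day 14 they were 3 with DESeq2, 0 with no filter and 10 with only the groups compared, and 0 with each day 14 library left out; all genes called there were 2752 to 3003 with a library left out. For the difference between the days, 0 to 3 members were called with libraries left out, and all genes called were 174 with DESeq2, 31 with limma-voom, 374 with no filter, 51 with thinned libraries, 869 with only the groups compared and 13 to 100 with libraries left out. For AG120 day 14 minus AG120 day 5, 1 member was called with DESeq2 and 6 with only the groups compared, and all genes called were 852 with no filter, 1448 with only the groups compared and 137 to 317 with a library left out. For vehicle day 14 minus vehicle day 5, 33 genes were called with no filter and 236 with only the groups compared. For relapse minus vehicle, 120 genes were called with DESeq2, 267 with no filter, 7 with only the groups compared, 6 against vehicle day 14 only and 8 to 117 with a library left out. For relapse minus AG120, 1 member was called with limma-voom and 1 to 4 with libraries left out. The median spread of the members within groups was 0.404 to 0.769 with libraries left out.

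Signs turned for log2 differences that did not pass in edgeR's fit over all libraries. With limma-voom, vehicle day 14 minus vehicle day 5 was 0.45 in Fosb and 0.68 in Egr1, relapse minus vehicle was -0.56 in Fos, -0.60 in Egr1 and -0.17 in Ier2, and relapse minus AG120 was -0.46 in Fos and -0.84 in Egr1. Thinned libraries gave 0.0021 in Jun for relapse minus AG120. Against vehicle day 14 only, relapse was -0.32 in Fos, -0.10 in Ier2 and 0.11 in Ier5. With libraries left out, the day 5 difference ran from -0.024 to 2.13 in Fosb and from -0.34 to 0.14 in Ier2, the difference between the days from -0.88 to 0.85 in Btg2, and AG120 day 14 minus AG120 day 5 from -0.79 to 0.95 in Btg2. Vehicle day 14 minus vehicle day 5 ran from -0.80 to 1.36 in Fosb, -0.22 to 1.43 in Jun, -0.16 to 0.97 in Junb, -1.03 to 1.79 in Egr1, -0.010 to 0.55 in Ier2, -0.92 to 0.71 in Ier5, -0.064 to 0.41 in Btg2, -0.24 to 0.29 in Klf6 and -0.73 to 0.30 in Dusp1. Relapse minus vehicle ran from -0.84 to 0.87 in Fos, -2.38 to 1.74 in Egr1, -0.64 to 0.26 in Ier2, -0.74 to 0.47 in Ier5 and -0.75 to 0.19 in Btg2. Relapse minus AG120 ran from -0.55 to 1.06 in Fos and -0.59 to 0.24 in Jun. It ran from -2.06 to 1.31 in Egr1 and from -0.69 to 0.080 in Ier5. Without vehicle day 5 replicate 1 and relapse replicate 3, Egr1 and Ier5 passed near these lowest values. Fosb passed near its highest day 5 value in that fit. The cause of the turned signs was not tested.

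Whether replicate numbers pair the day 5 libraries is not given in the sources used here. Over all genes tested, same-numbered deviations of the day 5 libraries had correlations of 0.107, 0.0491 and 0.0171. These cannot show whether libraries shared a sort. Among the 10 members, replicate 1 was above its group mean for 10 in both day 5 groups and replicate 2 for 0. Replicate 3 was above it for 3 in AG120 and 0 in vehicle. Of all genes tested, 48.7% to 53.3% were above the group mean in the day 5 libraries. With the replicate number as a block, 2 members were called at day 5, 1 at day 14 and 2 in relapse minus AG120, the same counts as without it, and all genes called were 4677 at day 5 and 4129 at day 14. Under the block, Egr1 had 0.12 in vehicle day 14 minus vehicle day 5 and Ier2 had -0.13 in relapse minus vehicle.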
